A study of Mus musculus with 39 samples.

Results

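The mouse genes named Dnaja, Dnajb or Dnajc with a number were followed through the 2-cell and 4-cell stages of the embryo. They were taken as every row of the deposited count table whose symbol is one of those 3 stems followed only by digits, which gave 43 of 55487 genes. Symbols with a further letter or a pseudogene suffix (Dnajc5b, Dnajc5g, Dnajc19-ps, Dnaja1-ps and Dnajb6-ps) fell outside this rule. All 43 matched a protein-coding gene of GENCODE M21, the annotation used here for positions and lengths.

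J-domain proteins, named after bacterial DnaJ, bring substrates to HSP70 chaperones and switch on their ATPase, while nucleotide exchange factors release the substrate again. Type A and type B members work mostly in the cytosol and nucleus, and type C members carry the J domain in many other settings, among them the endoplasmic reticulum, mitochondria, the spliceosome, the ribosome and clathrin-coated vesicles. In the mouse embryo the 2-cell stage is when transcription of the zygotic genome begins in earnest and maternal transcripts from the oocyte are being cleared.

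The series profiled WT Mus musculus embryos by Smart-seq2, which primes polyadenylated RNA with oligo-dT, switches template to obtain full-length cDNA, amplifies it by PCR and fragments it by tagmentation. Separated 4-cell embryos gave 20 single-blastomere libraries from 5 embryos, of which embryos 2, 3 and 4 are labelled batch 1 and embryos 6 and 7 batch 2. Intact 4-cell embryos gave 4 libraries (embryos 1, 3, 4 and 5), separated 2-cell embryos gave 10 single-blastomere libraries from 5 embryos, and intact 2-cell embryos gave 5 libraries, all of batch 1. Sister blastomeres were summed into their embryo, so that 39 libraries became 19 embryos. Strain, maternal age, culture and how the blastomeres were separated are not given in the labels, and neither is whether the embryos came from separate mothers, so the p-values measure the spread between these embryos, part of which may be technical. An embryo is a bulk sample at this level, in which fewer cells holding a transcript and less of it per cell cannot be told apart.

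Summed totals were 13.04 to 103.18 M counts in separated 4-cell embryos, 2.74 to 4.19 M in intact 4-cell embryos, 14.23 to 56.22 M in separated 2-cell embryos and 7.16 to 9.89 M in intact 2-cell embryos. Libraries of batch 2 had a median of 26.1 M counts and those of separated 4-cell batch 1 had a median of 3.55 M. The stage labels were checked against oocyte transcripts (5 genes, among them Gdf9 and Bmp15), whose summed level was 60.9 to 237 CPM in separated 4-cell embryos and 75.9 to 211 CPM in intact ones, against 1449 to 4983 CPM in separated 2-cell embryos and 1586 to 6693 CPM in intact ones. Markers of other cells were low, with medians over embryos of at most 1.54 CPM for 9 cumulus and granulosa genes, 18.2 CPM for 6 blood genes, 6.57 CPM for 6 sperm genes and 3.34 CPM for 5 oviduct genes in any group. The highest single sums were 43.7 CPM for cumulus genes in a separated 2-cell embryo, 50.2 CPM for blood genes in a separated 4-cell embryo and 30.2 CPM for sperm genes in an intact 2-cell embryo. Of the 9 cumulus and granulosa genes, 6 had a count in separated 4-cell embryos and 1 in intact 4-cell embryos. In separated 2-cell embryos 2 of them had a count, and in intact 2-cell embryos 4. Of the 6 sperm genes, 2 had a count in separated 4-cell, 2 in intact 4-cell, 1 in separated 2-cell and 2 in intact 2-cell embryos. The part of other cells in the results below was not tested.

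Of the 43 genes, 41 had at least 1 count, Dnajb7 and Dnajb8 had none in any library, and 36 passed the filter on low counts and were tested. A gene that is high in 1 group passes this filter through that group, so the 36 are not a sample of all 43. Levels below are TMM-scaled CPM, a gene's share of the counts of its embryo, and a difference between stages is a log2 fold change with its standard error from 1 edgeR quasi-likelihood fit to 14119 genes and 19 embryos. A gene was called at a Benjamini-Hochberg adjusted p under 0.05 over all genes tested. Because batch 2 holds separated 4-cell embryos alone, the fitted separated 4-cell level is that of embryos 2, 3 and 4. Embryos 6 and 7 add to the estimate of the spread, and also to the choice of genes tested and to the scaling. Without them 14173 genes were tested. The median log2 fold change for stage in intact embryos was then -0.20 over all tested genes and -0.15 over the members.

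The 43 genes summed to 4324 ± 603 CPM in separated 4-cell embryos (SD, n = 5) and 3665 ± 449 CPM in intact 4-cell embryos (n = 4), against 3296 ± 474 CPM in separated 2-cell embryos and 2660 ± 256 CPM in intact 2-cell embryos (n = 5 each). The sums of separated 4-cell and separated 2-cell embryos overlapped, since the lowest 4-cell sum was 3725 CPM and the highest 2-cell sum 3936 CPM. Those of intact embryos did not, at 3037 CPM or more in 4-cell embryos and 2973 CPM or less in 2-cell embryos. Scaled per kilobase of the principal transcript, the intact sums overlapped, at 1542 lowest in 4-cell and 1775 highest in 2-cell embryos. With the length of all exons together these were 1247 and 1651. Dnajb9 alone made up 20.4% of the summed CPM in separated 4-cell embryos and 25.5% in intact ones, against 36.9% in separated 2-cell embryos and 34.3% in intact ones.

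**Figure D1:**
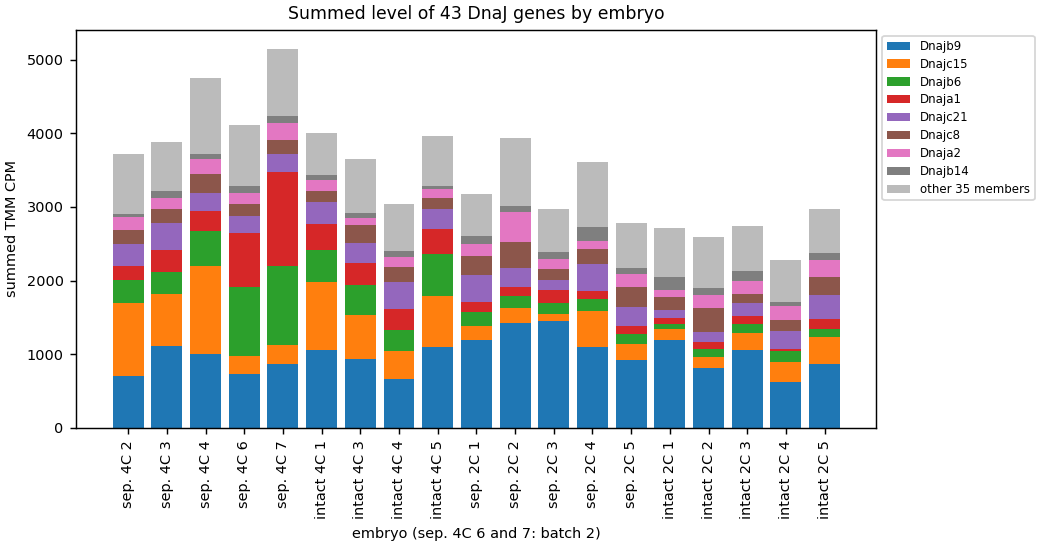
Stacked bars give, for each of the 19 embryos on the x axis, the summed TMM-normalised CPM of the 43 DnaJ genes on the y axis, with the 8 genes of highest mean level in colour and the other 35 in grey. The blue Dnajb9 segment measures 622 to 1448 CPM, the orange Dnajc15 segment is tall in 4-cell embryos of batch 1, and the green Dnajb6 and red Dnaja1 segments are tallest in separated 4-cell embryos 6 and 7 of batch 2.

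Across the stage step in intact embryos, 7 of the 36 tested genes were called, 6 higher and 1 lower in 4-cell embryos, against a background of 10.4% of all tested genes called (5.41% higher and 4.99% lower). In separated embryos 7 of 36 were called, 5 higher and 2 lower, against a background of 11.1% (6.4% higher and 4.7% lower). Called higher in both were Dnajb6, Dnajc7, Dnajc15 and Dnajc24, and called lower in both was Dnajb4. Dnaja1 and Dnajc16 were called higher in intact embryos alone, and Dnajb3 (higher) and Dnajc4 (lower) in separated embryos alone. These lists are those of edgeR, and DESeq2 and limma voom called Dnajc4 lower in intact embryos too. Both tools call more genes for stage over all 14119 genes. DESeq2 called 3047 in intact and 3210 in separated embryos, limma voom 2844 and 2318, and edgeR 1469 and 1568. Among the 36 members DESeq2 called 8 and 7, and limma voom 6 and 6. At an unadjusted p under 0.05 in edgeR stood 22.2% of members in intact embryos, beside 28% of all tested genes. In separated embryos it was 30.6%, beside 27.9%. A surplus of members over the background was thus not seen by every measure. The median log2 fold change over the 36 genes was 0.02 in intact and 0.20 in separated embryos, beside 0.00 and -0.15 over all tested genes. With DESeq2 size factors these medians were -0.14 and 0.16, beside -0.13 and -0.21, so the sign of the intact median depends on the scaling. Without batch 2 the separated count was 4 (Dnajb4, Dnajb6, Dnajc15 and Dnajc24), and it was 3 without separated 4-cell embryo 4. The intact count was 3 without intact 4-cell embryo 3 and 4 without intact 4-cell embryo 5. Embryo groups of the 2 stages did not overlap for 5 members higher and 2 lower in intact 4-cell embryos, beside 9.87% and 7.1% of all tested genes, and for 5 higher and 3 lower in separated 4-cell embryos of batch 1, beside 11.7% and 8.74%. The stage contrasts of intact and separated embryos use different embryos but share 1 estimate of the spread. No member differed between them by the interaction test (0 of 36 called by edgeR, beside a background of 0%). DESeq2 and limma voom called 0 of 36 too, where over all 14119 genes DESeq2 called 517 and limma voom 2. In edgeR 2 members under an unadjusted p of 0.05, and a p that misses the threshold does not show that the effects are alike.

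**Figure D2:**
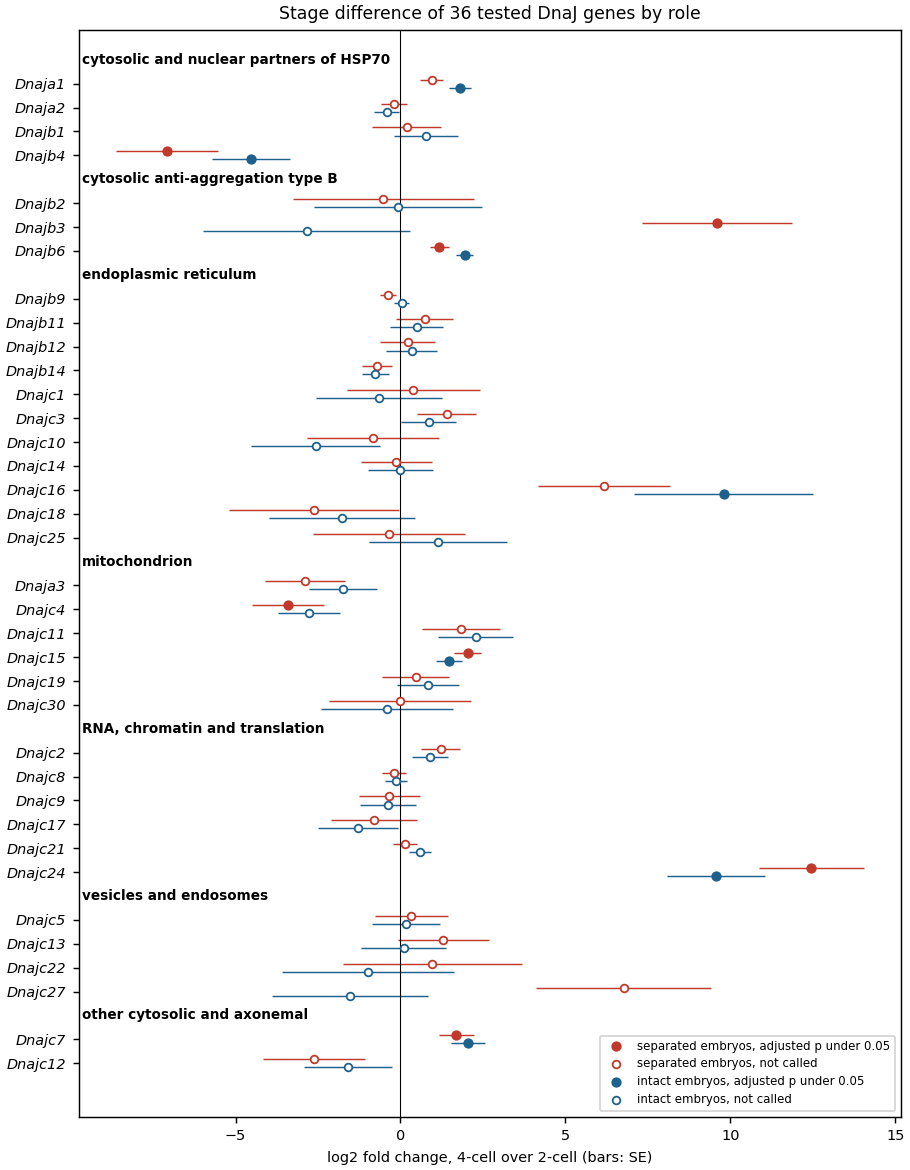
Each row is 1 of the 36 tested DnaJ genes, grouped by role, and the x axis is the log2 fold change of 4-cell over 2-cell embryos with its standard error, in red for separated and in blue for intact embryos, filled where the adjusted p was under 0.05. Genes lie on both sides of 0, many with wide standard errors. Dnajb4 and Dnajc4 lie to the left, as do Dnaja3, Dnajc10, Dnajc12 and Dnajc18, which were not called. Dnajb6, Dnaja1, Dnajc7 and Dnajc15 lie between 0.94 and 2.05. Points beyond 4 on the right belong to genes with hardly any 2-cell count, whose fitted size depends on the prior count and is not a measure of the fold.

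Among the cytosolic and nuclear partners of HSP70, Dnaja1 and Dnajb4 moved in opposite directions in intact embryos, and of 6 such genes 4 were tested. Dnaja1, a type A co-chaperone of the constitutive HSP70 Hspa8, lies at chr4:40722150-40737149 on the plus strand (GRCm38). Its level was 194, 294, 264, 734 and 1267 CPM in separated 4-cell embryos 2, 3, 4, 6 and 7, against 128, 125, 179.6, 109 and 109 CPM in separated 2-cell embryos. The intact 4-cell embryos measured 361, 298, 284 and 343 CPM, against 82, 97.4, 108, 34.4 and 137 CPM in intact 2-cell embryos. Every 4-cell embryo exceeded every 2-cell embryo, and the widest scatter was among separated 4-cell embryos, where the batch 2 embryos were highest. The difference was 1.81 ± 0.33 in intact embryos (adjusted p = 0.00159, 3.5-fold) and, at the level of batch 1, 0.94 ± 0.35 in separated embryos (adjusted p = 0.0811), which did not pass. With limma voom the intact difference did not pass either (adjusted p = 0.568), and reads of Smu1 and Gm6297 on the opposite strand cannot be told apart from those of Dnaja1, because strandedness is not given in the sources used here.

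Dnajb4, a type B co-chaperone of HSP70, lies at chr3:152178511-152210302 on the minus strand and was called lower in both conditions. Separated 4-cell embryos had 0.216, 0.638, 1.23, 0.225 and 0.519 CPM, against 38.7, 103, 153, 96.4 and 79.8 CPM in separated 2-cell embryos. Intact 4-cell embryos had 12.9, 6.3, 0 and 0 CPM, against 83.1, 239, 115, 101 and 13 CPM in intact 2-cell embryos. All 5 separated 4-cell embryos stood at 1.23 CPM or less, and the lowest 2-cell embryo of either condition stood above its 4-cell counterparts. In intact embryos that gap was narrow, since the lowest 2-cell embryo had 13.0 CPM and the highest 4-cell embryo 12.9 CPM. The log2 fold change was -7.08 ± 1.54 in separated embryos (adjusted p = 0.00699) and -4.53 ± 1.19 in intact embryos (adjusted p = 0.0198, 0.0513 without intact 4-cell embryo 3). In single blastomeres the level per library total was at most 4.31 CPM in 20 4-cell blastomeres, against 10.9 to 159.5 CPM in 10 2-cell blastomeres, so no blastomere of one stage reached the range of the other.

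Dnaja2, another type A partner, was among the 8 members of highest mean CPM, a scale that also grows with transcript length, and was not called for stage. It had 172, 142, 204, 160.4 and 233 CPM in separated 4-cell embryos, against 164, 413, 139.8, 106 and 171 CPM in separated 2-cell embryos. The intact 4-cell embryos measured 156, 106, 138 and 121 CPM, against 98.3, 179, 179, 191 and 226 CPM in intact 2-cell embryos. The groups overlapped in both conditions, with log2 fold changes of -0.20 ± 0.40 in separated and -0.42 ± 0.37 in intact embryos. Dnajb1, the classical heat-inducible type B member, was not called in either condition.

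Among the type B members known for keeping proteins from aggregating, Dnajb6 had the smallest adjusted p of any member in intact embryos. DNAJB6 suppresses aggregation of polyglutamine proteins, and the mouse gene lies at chr5:29735688-29818134 on the plus strand. Its level was 321, 302, 484, 937 and 1086 CPM in separated 4-cell embryos, against 190.3, 162, 158, 166 and 137 CPM in separated 2-cell embryos. Intact 4-cell embryos had 428, 415, 286 and 572 CPM, against 68.6, 101, 121, 142 and 119 CPM in intact 2-cell embryos. All 9 4-cell embryos exceeded all 10 2-cell embryos, and the separated 4-cell embryos 6 and 7 of batch 2 stood above the rest. The log2 fold change was 1.95 ± 0.27 in intact embryos (adjusted p = 0.000146, 3.85-fold) and 1.18 ± 0.28 in separated embryos (adjusted p = 0.0122, 2.27-fold). The separated call was lost without separated 4-cell embryo 4 (adjusted p = 0.0817), which lowered the count of called members to 3 of 36. With limma voom neither passed (adjusted p = 0.0707 in intact and 0.159 in separated embryos). Of 31 alternatives for each, the intact call was lost in 2 (adjusted p up to 0.79) and the separated call in 5 (adjusted p up to 0.711). In 30 of 39 libraries its count was not a whole number, since RSEM shares reads between near-identical sequences, and the deposited row Dnajb6-ps held 405 counts in all. Gm5129, Gm2213 and Gm5552 overlap Dnajb6 on the opposite strand, and their reads cannot be told apart from those of Dnajb6.

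Dnajb3, known in mouse from male germ cells, lies at chr1:88204732-88205782 on the minus strand within the Ugt1a gene cluster of the opposite strand. It was 0, 3.12, 7.69, 1.55 and 2.88 CPM in separated 4-cell embryos, and every separated 2-cell embryo was at 0, so embryo 2 shared that value. Intact 4-cell embryos were all at 0, as were intact 2-cell embryos apart from embryo 2 with 1 count. The 149 counts of the batch 1 4-cell embryos against 0 gave at least 204-fold more (adjusted p = 0.0199), taking 3 counts over the group as the floor, but under DESeq2 the adjusted p was 0.135. A count of 0 in intact 4-cell embryos allows up to 0.203 CPM, and the difference between separated and intact 4-cell embryos did not pass (adjusted p = 0.801). These floors cover counting error only, because PCR reads without molecular tags are not independent molecules. Dnajb2 was not called, and Dnajb7 and Dnajb8 had no count.

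Heat shock factors bind repeats of GAA and its reverse complement TTC, and promoter windows were searched for these and a few other motifs. The windows of the 4 stage-called members that hold one are shown, chosen for that match, and the windows of the other 5 stage-called members held none of them. RefSeq windows of GRCm38.p6, from 250 bases before to 50 bases after a transcript's start, existed for 36 of the 43 members (49 windows). Capitals mark the motif matches, and each sequence reads 5′ to 3′ in the direction of transcription. The windows are chr5:29735648-29735947 (plus strand) for Dnajb6, chr4:40722218-40722517 (plus) for Dnaja1, chr3:152193796-152194095 (minus, 1 of 2 RefSeq starts) for Dnajb4 and chr2:106003500-106003799 (minus) for Dnajc24.
Dnajb6: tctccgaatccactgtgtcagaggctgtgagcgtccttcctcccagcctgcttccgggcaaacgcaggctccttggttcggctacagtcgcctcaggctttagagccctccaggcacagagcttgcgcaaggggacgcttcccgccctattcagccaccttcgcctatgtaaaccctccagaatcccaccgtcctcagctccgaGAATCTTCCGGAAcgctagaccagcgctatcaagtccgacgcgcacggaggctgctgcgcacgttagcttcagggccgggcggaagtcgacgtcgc
Dnaja1: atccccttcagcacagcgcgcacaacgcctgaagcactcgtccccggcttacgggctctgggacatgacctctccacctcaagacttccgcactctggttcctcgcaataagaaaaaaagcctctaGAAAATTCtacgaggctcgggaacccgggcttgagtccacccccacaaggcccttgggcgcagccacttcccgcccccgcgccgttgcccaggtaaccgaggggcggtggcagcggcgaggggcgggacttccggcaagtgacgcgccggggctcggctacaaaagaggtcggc
Dnajb4: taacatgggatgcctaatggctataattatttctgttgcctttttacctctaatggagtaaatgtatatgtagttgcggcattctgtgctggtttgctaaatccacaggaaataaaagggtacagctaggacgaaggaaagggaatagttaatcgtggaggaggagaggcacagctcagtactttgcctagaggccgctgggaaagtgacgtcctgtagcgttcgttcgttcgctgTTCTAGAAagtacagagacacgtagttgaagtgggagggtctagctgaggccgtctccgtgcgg
Dnajc24: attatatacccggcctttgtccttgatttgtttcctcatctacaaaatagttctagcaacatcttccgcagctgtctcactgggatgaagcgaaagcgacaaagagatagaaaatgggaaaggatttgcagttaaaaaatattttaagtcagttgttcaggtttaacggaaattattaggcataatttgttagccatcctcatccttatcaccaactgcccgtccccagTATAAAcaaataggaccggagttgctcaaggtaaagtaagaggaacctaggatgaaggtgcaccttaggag
The motif GAANNTTCNNGAA, searched on both strands, was present in 0.603% of all 32851 windows and in Dnajb6 alone among members, 46 to 34 bases before the start shown. The shorter GAANNTTC was in 7.86% of windows and in those of Dnaja1, Dnaja4, Dnajb6 and Dnajc27, and TTCNNGAA was in 8.52% of windows and in those of Dnajb4, Dnajb6 and Dnajc10. In Dnajb6 both short motifs overlap the long one. Dnaja1 holds GAANNTTC 124 to 117 bases before its start, and Dnajb4 holds TTCNNGAA 14 to 7 bases before the start shown. TATAAA was in 13.6% of windows and in those of Dnajc19 and Dnajc24, where in Dnajc24 it ended 16 bases before the start. The endoplasmic reticulum stress element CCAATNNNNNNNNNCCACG was in 0.119% of windows and among members in Dnajc3 alone, an inhibitor of the eIF2 kinase that also works with Hspa5, 105 to 87 bases before its start. A match is a description of letters, not of binding.

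Among members of the endoplasmic reticulum, 1 of 11 was called in intact embryos (Dnajc16). In separated embryos 0 of 11 were called by edgeR, DESeq2 or limma voom, with 1 at an unadjusted p under 0.05 in edgeR. Dnajb9, a co-chaperone of the lumenal HSP70 Hspa5 that acts in degradation of misfolded proteins, had the highest mean CPM of the members, a count measure not corrected for length. It stood at 704, 1107, 1003, 729.8 and 865 CPM in separated 4-cell embryos, against 1191, 1428, 1448, 1097 and 919.9 CPM in separated 2-cell embryos. The intact 4-cell embryos measured 1059, 927, 662 and 1092 CPM, against 1196, 813, 1061, 622 and 863 CPM in intact 2-cell embryos. The 4 groups overlapped, and the 19 embryos ranged between 622 and 1448 CPM. The log2 fold change was -0.38 ± 0.25 (95% interval -0.90 to 0.15) in separated embryos and 0.04 ± 0.23 (95% interval -0.44 to 0.52) in intact embryos, so both intervals leave out differences of 1 or more on the log2 scale.

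Dnajb14, an endoplasmic reticulum membrane protein with its J domain in the cytosol, had 44.1, 98.5, 69.8, 93.7 and 87.3 CPM in separated 4-cell embryos, against 113, 83.2, 101, 201 and 80.3 CPM in separated 2-cell embryos. Intact 4-cell embryos had 62.5, 70.1, 86.3 and 47.2 CPM, against 182, 86.4, 134, 66.4 and 92.5 CPM in intact 2-cell embryos. The groups overlapped, and neither log2 fold change passed (-0.71 ± 0.45 in separated and -0.76 ± 0.41 in intact embryos, adjusted p = 0.321 and 0.231). Dnajc10, a disulfide reductase of the lumen, was also not called, at -0.84 ± 2.01 in separated and -2.58 ± 1.96 in intact embryos.

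Dnajc16, a membrane protein of the endoplasmic reticulum at chr4:141760189-141790931 on the minus strand, had a count in no 2-cell library. Its level was 0, 0, 1, 12.6 and 1.72 CPM in separated 4-cell embryos and 6.45, 4.08, 5.12 and 0.973 CPM in intact 4-cell embryos, against 0 CPM in all 10 2-cell embryos. All 4 intact 4-cell embryos had a count, whereas separated embryos 2 and 3 had none. The 61 counts in intact 4-cell embryos were at least 55.4-fold more than the floor of 3 counts over the intact 2-cell group (adjusted p = 0.0414), and the separated contrast did not pass (adjusted p = 0.0686). The intact call was lost in 14 of 29 alternatives, with adjusted p up to 0.18. Of these, 10 left out any 1 of the 9 intact embryos or separated 4-cell embryo 7, with adjusted p of 0.0521 to 0.0897.

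Of 6 tested mitochondrial members, Dnajc15 was called in both conditions. Dnajc15, an inner-membrane protein linked to presequence import and to restraint of respiratory complex I, lies at chr14:77820681-77875125 on the minus strand. This gene had 984, 708, 1192, 239.6 and 253 CPM in separated 4-cell embryos, against 194, 194, 90.9, 484 and 213 CPM in separated 2-cell embryos. The intact 4-cell embryos measured 924, 603, 377 and 694 CPM, against 146, 153, 224, 276 and 363 CPM in intact 2-cell embryos. The 3 separated 4-cell embryos of batch 1 stood above every 2-cell embryo, embryos 6 and 7 of batch 2 lay within the range of the separated 2-cell embryos, and the intact groups did not overlap, by 377 CPM against 363 CPM. The log2 fold change at the level of batch 1 was 2.03 ± 0.42 in separated embryos (adjusted p = 0.00472, 4.09-fold), which held in all 31 alternatives computed. In intact embryos it was 1.48 ± 0.39 (adjusted p = 0.0205, 2.79-fold), a call lost in 7 of 31 alternatives, with adjusted p up to 0.495. Of these, 5 omitted intact 2-cell embryo 1 or 2 or intact 4-cell embryo 1, 3 or 5, with adjusted p of 0.0506 to 0.112.

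Dnajc4, at chr19:6987911-6992572 on the minus strand, went the other way. Separated 4-cell embryos had 5.91, 16.4, 0.0769, 4.02 and 11.5 CPM, against 121, 152, 19.5, 49.8 and 54.9 CPM in separated 2-cell embryos. Intact 4-cell embryos had 11.1, 7.05, 7.31 and 18.2 CPM, against 64.6, 23.3, 106, 65.6 and 114 CPM in intact 2-cell embryos. No 4-cell embryo reached the lowest 2-cell embryo of its condition. The log2 fold change was -3.41 ± 1.08 in separated embryos (adjusted p = 0.0476) and -2.77 ± 0.93 in intact embryos (adjusted p = 0.062), which did not pass in edgeR, while DESeq2 and limma voom called it lower in intact embryos as well. The separated call was lost in 17 of 31 alternatives, 13 of them leaving out 1 embryo, with adjusted p up to 0.142 without separated 4-cell embryo 2. Only without intact 2-cell embryo 2, separated 2-cell embryo 3 or 4, or separated 4-cell embryo 3, 6 or 7 did it hold among those 19 omissions.

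Dnaja3, a mitochondrial matrix co-chaperone of Hspa9, was not called by edgeR, at -2.91 ± 1.21 in separated and -1.74 ± 1.02 in intact embryos. DESeq2 did call it lower in separated embryos. Within batch 1 its separated groups did not overlap, at 13.7 CPM or less in 4-cell embryos and 19.5 CPM or more in 2-cell embryos, whereas 4-cell embryo 7 of batch 2 had 27.6 CPM. Dnajc11, a protein of the mitochondrial cristae-organising complex, was not called either, at 1.84 ± 1.19 in separated and 2.28 ± 1.14 in intact embryos. Single embryos ranged from 23.0 to 420 CPM in separated 4-cell and 25.6 to 126 CPM in intact 4-cell embryos, against 2.95 to 212 CPM in separated 2-cell and 1.66 to 58.7 CPM in intact 2-cell embryos.

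Of the 6 members acting on RNA, chromatin or translation, Dnajc24 was called in both conditions and the others in neither. Dnajc24, which takes part in the synthesis of diphthamide on elongation factor eEF2, lies at chr2:105966709-106003549 on the minus strand. It had 21.8, 18.1, 39, 18.2 and 20.5 CPM in separated 4-cell embryos, against 0 CPM in all 5 separated 2-cell embryos. The intact 4-cell embryos measured 9.04, 26.3, 22.4 and 32.8 CPM, against 0 CPM in intact 2-cell embryos apart from embryo 5, whose single count was 0.129 CPM. All 9 4-cell embryos had counts, 333 in the intact and 1093 in the separated batch 1 embryos. The separated difference was at least 1488-fold (adjusted p = 0.00028), since 0 counts in separated 2-cell embryos allow up to 0.0177 CPM. The intact ratio was 901, with a 95% counting interval of 161 to 35690 (adjusted p = 0.000889). Both calls held in all 31 alternatives computed for each, with adjusted p of at most 0.0112. The pseudogene Dcdc5 overlaps it on the opposite strand.

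The splicing factor Dnajc8 and the ribosome biogenesis factor Dnajc21 were abundant at both stages. Dnajc8 had 195, 190.0, 249, 154 and 199 CPM in separated 4-cell embryos, against 249, 352, 138, 201 and 276 CPM in separated 2-cell embryos. Intact 4-cell embryos had 151, 243, 196 and 151 CPM of Dnajc8, against 174, 327, 119.9, 141 and 245 CPM in intact 2-cell embryos. The Dnajc8 ranges overlapped throughout, with log2 fold changes of -0.20 ± 0.36 in separated and -0.12 ± 0.33 in intact embryos. Dnajc21 had 292, 373, 250.1, 239.7 and 244 CPM in separated 4-cell embryos, against 376, 257, 136, 367 and 258 CPM in separated 2-cell embryos. The intact 4-cell embryos measured 291, 262, 376 and 269 CPM of Dnajc21, against 107, 139, 177, 243 and 326 CPM in intact 2-cell embryos. Its ranges overlapped too, and neither 0.13 ± 0.36 in separated nor 0.60 ± 0.33 in intact embryos passed. Dnajc2, a chaperone of the ribosome that also binds ubiquitinated chromatin, was not called at 1.22 ± 0.58 in separated and 0.90 ± 0.55 in intact embryos. Dnajc17, a nuclear protein, was not called at -0.81 in separated and -1.28 in intact embryos (adjusted p = 0.755 and 0.535).

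Dnajc7, whose tetratricopeptide repeats bind both HSP70 and HSP90, lies at chr11:100582818-100620168 on the minus strand. It had 98.5, 91.3, 164, 179 and 192 CPM in separated 4-cell embryos, against 21.9, 65.3, 26.3, 28.8 and 40.8 CPM in separated 2-cell embryos. Intact 4-cell embryos had 38.7, 135, 142 and 157 CPM, against 48.3, 9.34, 26.4, 22.9 and 36.2 CPM in intact 2-cell embryos. The separated groups did not overlap, while intact 4-cell embryo 1 fell below the highest intact 2-cell embryo. The log2 fold change was 2.05 ± 0.50 in intact embryos (adjusted p = 0.0138, 4.13-fold) and 1.69 ± 0.53 in separated embryos (adjusted p = 0.0448, 3.22-fold). The intact call was lost in 5 of 31 alternatives, with adjusted p up to 0.472. Of these, 3 omitted 4-cell embryo 3, 4 or 5 (adjusted p between 0.0581 and 0.0738). The separated call was lost in 17 of 31 alternatives, 13 of them leaving out 1 embryo (adjusted p up to 0.202, without separated 4-cell embryo 4). The omissions that lost the separated call were intact 2-cell embryo 4, intact 4-cell embryo 3, 4 or 5, separated 2-cell embryo 1, 3, 4 or 5 and any separated 4-cell embryo. Cnp and Nkiras2 overlap Dnajc7 on the opposite strand, and 20 of its 39 values were not whole.

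Members acting at vesicles and endosomes gave no call among 4 tested in either condition by edgeR, DESeq2 or limma voom, and the Rab-related Dnajc27 alone had an unadjusted p under 0.05 in edgeR, in separated embryos. Dnajc12, which in humans assists folding of aromatic amino acid hydroxylases, was not called for stage at -2.63 ± 1.55 in separated and -1.58 ± 1.33 in intact embryos. The 5 members with counts that stayed below the filter had few in most embryos. Dnaja4 had 739 counts over all libraries, 483 of them in 1 separated 2-cell embryo and 250 in 1 separated 4-cell embryo. Dnajb5 had 276 counts and Dnajc6, the clathrin-uncoating auxilin, had 152, with none in either 2-cell group. Dnajb13, known from axonemes, had 269 counts and Dnajc28 had 258.

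**Figure D3:**
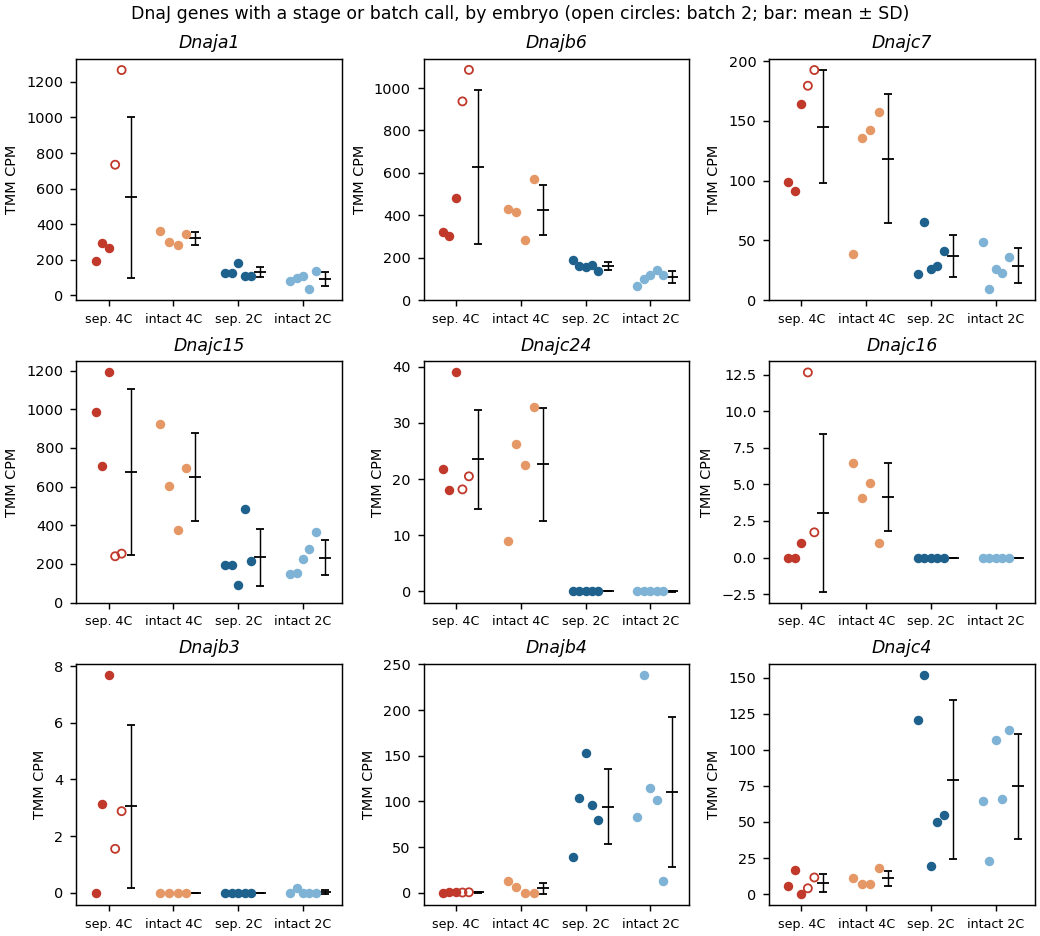
Each panel is 1 of the 9 members called for stage or batch, with TMM-normalised CPM on a linear y axis and 1 point per embryo in the groups separated 4-cell, intact 4-cell, separated 2-cell and intact 2-cell from left to right, open circles for batch 2 and a bar for the mean ± SD. Dnajc24 stands at 9.04 to 39 CPM in 4-cell embryos and at or near 0 in 2-cell embryos, Dnajb4 shows the converse, and in Dnaja1, Dnajb6 and Dnajc15 the batch 2 embryos stand apart from those of batch 1.

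Separation itself gave no call at either stage. At the 2-cell stage 0 of 36 members were called by edgeR (background 0.0142%), with Dnajc27 and Dnajb6 at an unadjusted p under 0.05. DESeq2 and limma voom also called 0 members there, out of 493 and 8 genes called in all. Dnajb6 was higher in separated than in intact 2-cell embryos by 0.56 ± 0.25 on the log2 scale (adjusted p = 0.408). Dnajb9 averaged 1217 ± 224 CPM in separated and 911 ± 223 CPM in intact 2-cell embryos, a difference of 0.42 ± 0.22 with a 95% interval of -0.03 to 0.87. At the 4-cell stage 0 of 36 were called by edgeR (background 0%), with Dnajb3 and Dnajb4 at an unadjusted p under 0.05, and 0 members by DESeq2 and limma voom, out of 379 and 13 genes called in all. Separated and intact groups overlapped for all 36 members at both stages, beside 0.432% of genes higher and 0.12% lower without overlap at the 2-cell stage and 4.09% higher and 2.1% lower at the 4-cell stage. For the 8 most abundant members the 4-cell differences lay between -0.36 (Dnaja1) and 0.57 (Dnajc15), and their 95% intervals together spanned -1.14 to 1.49. The outer bounds are those of Dnaja1 and Dnajc15. The intervals of Dnajb9 (-0.54 to 0.55) and Dnajb6 (-0.83 to 0.42) were narrower and left out log2 differences of 1 or more. These contrasts use the same embryos as the stage contrasts, and separation cannot be told apart from the smaller input of each library and the number of libraries summed.

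Between batches of separated 4-cell embryos 2 of 36 members were called, both higher in batch 2, against a background of 2.03% (0.269% higher and 1.76% lower). Dnaja1 was higher in batch 2 separated 4-cell embryos, at 734 and 1267 CPM, against 194, 294 and 264 CPM in batch 1 ones (2.00 ± 0.44, adjusted p = 0.0158, 3.99-fold). Dnajb6 was higher too, at 937 and 1086 CPM in batch 2, against 321, 302 and 484 CPM in batch 1 (1.45 ± 0.35, adjusted p = 0.0322, 2.74-fold). Neither batch overlapped the other for these genes. The count of called members fell to 0 without embryo 2 or 7 and to 1 without embryo 3 or 6, and limma voom called Dnajb6 but not Dnaja1 (adjusted p = 0.326). Dnajc15 was lower in batch 2 at 240 and 253 CPM, against 984, 708 and 1192 CPM in batch 1, without passing (-1.96 ± 0.57, adjusted p = 0.091), while DESeq2 and limma voom did call it. For batch DESeq2 called 1276 genes in all and limma voom 2374, against 286 by edgeR. The batches did not overlap for 11 members higher and 3 lower in batch 2, beside 27.9% and 16.4% of all tested genes. Batch 2 libraries had the higher median depth, although 1 of them, with 2.02 M counts, was the shallowest of all 39. With every embryo thinned to the same total the batch differences were 2.00 for Dnaja1 and 1.44 for Dnajb6, and both were called. Within batch 1 the stage difference of Dnajb6 was called, and that of Dnaja1 in separated embryos was not.

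Levels of different genes can be set side by side only per length, so counts per kilobase were scaled to the same sum over all genes in each embryo, as in TPM. With the length of the principal GENCODE transcript, Dnajb9 led the members in 3 of 4 groups, at 519 ± 132 in intact 4-cell embryos, against 489 ± 124 in intact 2-cell embryos, and at 623 ± 89.9 in separated 2-cell embryos. In separated 4-cell embryos Dnajb6 led at 750.0 ± 631, with Dnajb9 at 589 ± 176, a gap within the spread. In intact 4-cell embryos Dnajb6 came next at 364 ± 122, ahead of Dnajc21 at 197 ± 31.1 and Dnajc8 at 178 ± 33.9, which do not differ from each other beyond their spread. Dnajc15, with a transcript of 6193 bases, was second by CPM but fell behind Dnajb6, Dnajc8 and Dnajc21 per length over the 19 embryos. Counting the length of all exons together instead put Dnajb9 first in every group and moved Dnajb6 below Dnajc8 and Dnajc15 over the 19 embryos. The first place in separated 4-cell embryos and the order below Dnajb9 thus depend on the length used.

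Levels in single blastomeres were compared between sisters, here in CPM per library total. Unequal sharing of a message cannot be told apart from its loss or uneven amplification in a library of 1 cell. At the 2-cell stage the median pooled SD between sisters was 2.44 on the log2 scale over all 11996 genes tested there. Dnajb9 was the most even member at the 2-cell stage, with 931 to 1336 CPM in 10 blastomeres and a pooled within-embryo SD of 0.14 on the log2 scale. Dnajc15 had 1.07 and 151 CPM in the sisters of separated 2-cell embryo 3, so that 99.3% of its summed CPM lay in 1 blastomere, whereas in the other 4 embryos the lower sister had 110 CPM or more. Dnajc12 was as uneven, at 0.0891 and 46.8 CPM in the sisters of embryo 1 and 42.1 and 204 CPM in those of embryo 2. Dnajc11 had 244 and 5.1 CPM in the sisters of 2-cell embryo 4, and 1109 CPM in 1 blastomere of 4-cell embryo 4 whose sisters had 41.2, 119 and 274 CPM.

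Dnajc24 had a count in 0 of 10 2-cell blastomeres, against 11 of 12 4-cell blastomeres of batch 1 and 8 of 8 of batch 2. The exception was blastomere 1 of 4-cell embryo 2, whose sisters had 19.4, 39.4 and 23.5 CPM. In Dnaja1 all 8 blastomeres of batch 2 (834 to 1963 CPM) exceeded all 12 of batch 1 (119 to 436 CPM), so the batch difference was not carried by a single blastomere. Dnajc16 had a count in all 8 blastomeres of batch 2 and in 1 of 12 of batch 1. These libraries differ in depth, with a median of 26.1 M counts in batch 2 and 3.55 M in batch 1. In blastomere 1 of embryo 7 the Dnajc16 count was 1. Dnajb3 in embryo 4 was at 2.58 and 25.4 CPM in 2 blastomeres and at 0 in the other 2.

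**Figure D4:**
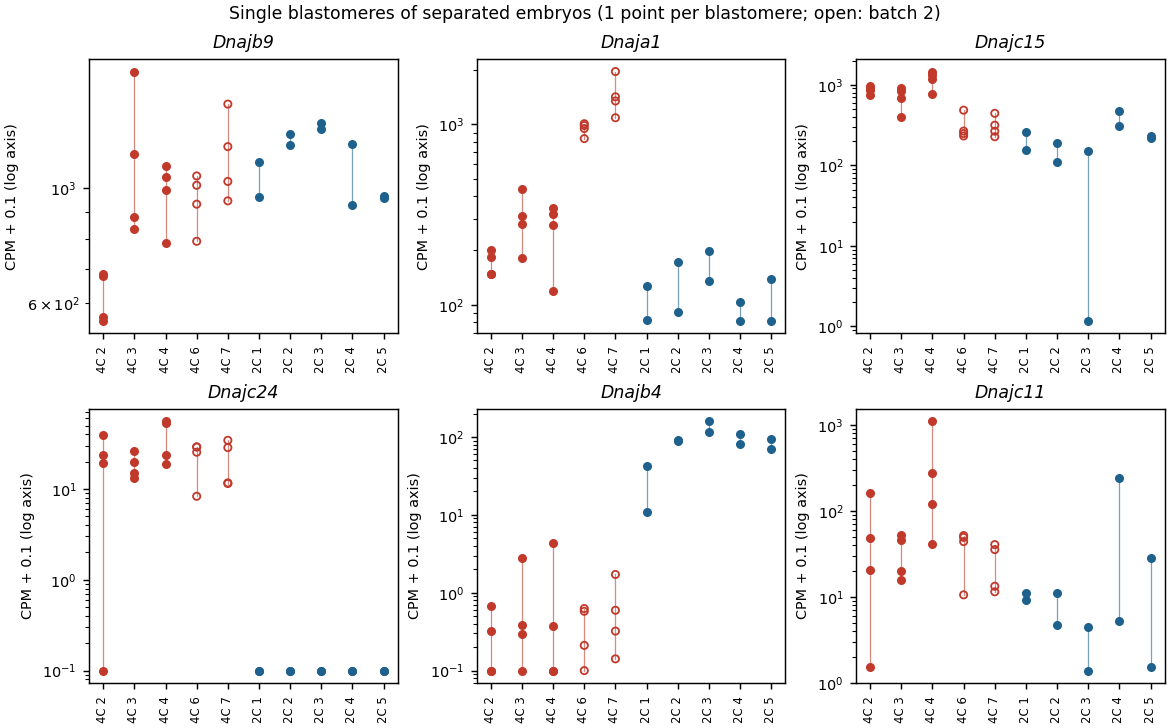
Each column is 1 separated embryo, 4-cell embryos (red) left of 2-cell embryos (blue), each point is 1 blastomere on a logarithmic axis of CPM per library total plus 0.1, a vertical line joins the lowest and highest sister, and open circles mark batch 2. Dnajb9 sisters lie close together, 2-cell embryo 3 has 1 sister near 1 CPM of Dnajc15, and Dnajc11 spreads over more than 10-fold in several embryos.

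Over all members the median pooled SD between sisters was 2.06 at the 2-cell stage, 1.34 in 4-cell batch 1 and 0.73 in 4-cell batch 2, beside 2.44, 2.02 and 0.88 over all genes tested in the same sets. Restricted to genes of mean CPM of at least 100, it was 0.56, 0.52 and 0.26 for 7, 9 and 11 members, beside 0.56, 0.63 and 0.31 over all such genes. With all blastomeres thinned to the same total the median was 0.72 in batch 2 and 1.28 in batch 1. Testing embryo as a factor, edgeR called 0 of 30 members at the 2-cell stage (background 0%), 0 of 24 in 4-cell batch 1 (background 0.152%) and 1 of 35 in 4-cell batch 2 (background 0.794%), where DESeq2 called 3, 1 and 3. At an unadjusted p under 0.05 in edgeR were 2, 5 and 6 members, which is 6.67%, 20.8% and 17.1% of them, beside 6.84%, 9.59% and 12.5% of all genes tested. The 1 was Dnajc12, at up to 130 CPM in the 4 blastomeres of embryo 7 and at most 14.2 CPM in those of embryo 6, without overlap (adjusted p = 0.0204 by edgeR).

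HSP70s, HSP90s, exchange factors and adaptors that work with DnaJ proteins were counted from lists. Of 13 tested HSP70 family genes 1 was called higher for stage in each condition, and it was Hspa8 both times, the constitutive HSP70, at 272 ± 159 CPM in separated 4-cell embryos of batch 1 and 368 ± 124 CPM in intact 4-cell embryos, against 26.3 ± 13.7 CPM in separated and 37.4 ± 11.2 CPM in intact 2-cell embryos. DESeq2 called 2 HSP70 genes higher and 2 lower in each condition, and limma voom called 2 higher and 1 lower in separated and 0 higher and 1 lower in intact embryos. For these and the lists below, the background of edgeR was 10.4% of all tested genes in intact and 11.1% in separated embryos. Of the same 14119 genes DESeq2 called 3047 and 3210, and limma voom 2844 and 2318. The batch difference of Hspa8 ran the way of Dnaja1 and Dnajb6, with 1945 ± 744 CPM in batch 2 and 272 ± 159 CPM in batch 1 separated 4-cell embryos (2.84 ± 0.58, adjusted p = 0.00832). The heat-inducible Hspa1a and Hspa1b were not called in any contrast, and Hspa1a averaged 3.37 ± 4.98 CPM in separated and 5.08 ± 6.18 CPM in intact 4-cell embryos, against 7.15 ± 7.29 CPM in separated and 4.05 ± 5.66 CPM in intact 2-cell embryos. Hspa1b averaged 2.06 ± 2.16 CPM in separated and 1.28 ± 1.56 CPM in intact 4-cell embryos, against 7.6 ± 8.21 CPM in separated and 1.91 ± 2.34 CPM in intact 2-cell embryos. Hspa5, the HSP70 of the endoplasmic reticulum, was not called for stage (0.71 ± 0.55 in separated and 0.18 ± 0.52 in intact embryos).

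HSP90 genes and the adaptors that pass substrates from HSP70 to HSP90 or to degradation formed a single list, with 11 tested. In separated embryos 3 were called, all higher (2 lower at an unadjusted p under 0.05 in edgeR). In intact embryos 4 were called higher and 2 lower. DESeq2 called 3 higher and 2 lower in separated and 4 higher and 3 lower in intact embryos, and limma voom called 1 higher and 0 lower in separated and 1 higher and 1 lower in intact embryos. The HSP90 gene Hsp90ab1 (2.21 ± 0.51 in separated, 3.26 ± 0.50 in intact), the HSP70-HSP90 organiser Stip1 (1.18 ± 0.29 and 1.75 ± 0.27) and the kinase co-chaperone Cdc37 (4.42 ± 0.92 and 4.39 ± 0.90) were called in both, with adjusted p of at most 0.0137 by edgeR. In separated embryos Hsp90ab1 was lost without 4-cell embryo 3 (adjusted p = 0.0601) and Stip1 without 4-cell embryo 4 (adjusted p = 0.0839). The HSP90 gene Hsp90aa1 was called higher in intact embryos alone (edgeR adjusted p = 0.00832). That call was lost without intact 4-cell embryo 1 (edgeR adjusted p = 0.0863). The 2 called lower in intact embryos were Ahsa1 (-3.10 ± 0.68), which stimulates the HSP90 ATPase, and the immunophilin Fkbp5 (-2.04 ± 0.57), a call lost on omitting intact 2-cell embryo 2 or 3 or any 1 intact 4-cell embryo (adjusted p between 0.0518 and 0.0677).

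Of 9 tested nucleotide exchange factors, the mitochondrial Grpel1 was called higher in separated embryos (2.25 ± 0.55). In intact embryos edgeR called none of the 9, with 1 lower at an unadjusted p under 0.05, while DESeq2 called 1 lower and limma voom 1 higher. Of 15 tested mitochondrial import genes, 3 were called higher in separated embryos (Timm17a, Grpel1 and Pam16) and 2 in intact embryos (Timm44 and Timm17a). Timm17a in intact embryos was lost in 11 of 19 omissions of 1 embryo (adjusted p up to 0.115), Timm44 without intact 4-cell embryo 3 or 5 (up to 0.0691) and Pam16 without separated 4-cell embryo 2 or 4 (up to 0.12). Of 15 tested chaperones and stress sensors of the endoplasmic reticulum, Atf6 was called higher in separated embryos. In intact embryos edgeR called none of the 15, with 3 lower at an unadjusted p under 0.05, while DESeq2 called 3 lower and limma voom 1 higher. Of 4 tested genes in the list of heat shock factors, the only one called by edgeR was not a factor but Hsbp1, which binds HSF1 and restrains it. Hsbp1 was lower in both (-1.88 ± 0.44 in separated, -2.10 ± 0.40 in intact), and Hsf1 and Hsf2 were not called. Among 7 tested J-domain genes outside the naming rule, Dnajc5g was called higher in both conditions and Dnajc5b lower in intact embryos. Dnajc5g in separated embryos was lost in 9 of 19 omissions (adjusted p up to 0.0939) and Dnajc5b without intact 2-cell embryo 3 or intact 4-cell embryo 1, 3 or 5 (up to 0.0838). The median log2 fold change was 0.32 in separated and 0.33 in intact embryos for the HSP70 family, beside -0.15 and 0.00 over all tested genes. It was 0.34 and 0.67 for HSP90s with adaptors, 0.92 and 0.04 for the exchange factors and 0.97 and 0.74 for mitochondrial import. For the endoplasmic reticulum it was -0.16 and -0.28, for the heat shock factors with Hsbp1 -2.07 and -1.10, and for the other J-domain genes 0.54 and -0.25.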

How the data were processed

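RNA was measured by Smart-seq2 in 39 libraries of WT mouse embryos or blastomeres, and the authors deposited estimated counts per gene for all libraries. Per the submitters' processing notes, Trim Galore 0.6.10, STAR 2.7.3a and RSEM 1.2.28 were used with GRCm38. Annotation version and strandedness are not given in the sources used here, so overlapping and antisense genes cannot be told apart. Of the non-zero deposited expected counts 12.6% were not whole. They were rounded and summed over the blastomeres of an embryo.

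Group contrasts were tested with the quasi-likelihood test of edgeR 4.0.16 (TMM, filterByExpr, terms group and batch, Benjamini-Hochberg at 0.05, R 4.3.3) over 14119 genes, standard errors were derived from the F value, and 95% intervals use the t distribution. The procedure was also run on simulated counts. Their spread was set lower than that of these embryos, so that run does not measure power or error rates here. Alternatives were DESeq2 1.42.0, limma 3.58.1, other filters, scalings and terms, thinning, and leaving out each embryo. Summed totals ran from 2.74 to 103.18 M counts per embryo.

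The members and gene lists were chosen with earlier results of these data known. Named individually are members called in any of 6 contrasts, the 8 of highest mean CPM, the next 6 by p in intact embryos and those singled out between sisters, the last chosen after their values were seen. Sequences come from RefSeq (GRCm38.p6).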

Additional observations from a re-analysis of the deposited data

Results flagged for a closer look

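In 51 tests of whether the highest or lowest embryo of a group stands apart from the rest (Dixon's gap test at the 95% level), 7 values of 6 members did so, where chance flags about 1 in 20 groups. Dnaja1 was 179.63 CPM in separated 2-cell embryo 3, against 109 to 128 CPM in the other 4. Dnaja2 was 412.53 CPM in separated 2-cell embryo 2, with 106 to 171 CPM in the other 4, and Dnajb14 was 200.98 CPM in separated 2-cell embryo 4, with 80.3 to 113 CPM in the others. Dnajc16 was 12.649 CPM in separated 4-cell embryo 6 of batch 2, with 0 to 1.72 CPM in the others. Dnajc24 was 38.988 CPM in separated 4-cell embryo 4, with 18.1 to 21.8 CPM in the others. The other 2 values are single counts in groups otherwise at 0, namely Dnajc24 at 0.12889 CPM in intact 2-cell embryo 5 and Dnajb3 at 0.16392 CPM in intact 2-cell embryo 2.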

How the results depend on the processing

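Of 485 recomputed values of called members 400 kept their direction and call, 85 kept their direction without passing, and 0 reversed. Counts of called members that moved by more than 1.5 times were 3 (stage in intact embryos), 1 (separation at the 2-cell stage) and 12 (batch) with each blastomere as a library, 4 (stage in separated embryos) without batch 2, and for batch 4 with limma voom and 1 without the count filter. Those with the replicate number as a block moved too, at 4 (stage in intact embryos), 3 (stage in separated embryos) and 0 (batch). Leaving out 1 embryo gave 3 to 8 calls for stage in intact, 3 to 7 in separated embryos, 0 to 0 for separation and interaction and 0 to 3 for batch, with 3 without intact 4-cell embryo 3, 4 without intact 4-cell embryo 5 and 3 without separated 4-cell embryo 4. DESeq2 called 3, 1 and 3 members for embryo differences at the 2-cell stage and in 4-cell batches 1 and 2. With DESeq2 size factors the median over all genes became -0.13 in intact and -0.21 in separated embryos, and with limma voom it was 0.58 and 0.38. DESeq2 called 41.7% of its stage calls in intact embryos higher, against 52.0% with edgeR and 64.3% with limma voom, and 38.8% against 57.7% in separated embryos. Summing sisters after thinning them to equal depth, chosen after seeing the data, gave 7 and 6 stage calls in intact and separated embryos.

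Same-numbered embryos of different groups did not deviate together (r of -0.09 to 0.05 in 21 pairs, 0 over 0.1). No pairing by number was detected in this way, which does not show that there was none. With the replicate number as a block 4 members were called for stage in intact embryos, 3 in separated embryos and 0 for batch. Intact 4-cell embryos, the shallowest group, limit detection of members with few counts.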
